A study of Mus musculus with 12 samples.

Results

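Brain tissue of 4 injured mice that received blocking antibodies to a pair of leukocyte integrins (anti-LFA1/VLA4) was compared with that of 4 injured mice that did not. These 8 libraries were chosen by their titles from the 12 of a bulk RNA-sequencing series, and the 4 uninjured libraries were left out of it. Both groups were male B6 mice, the common C57 black laboratory strain, aged 13 weeks, with a cerebrovascular injury. No genetic change is named in the labels. The injured tissue was taken on day 20 after injury as a cube with edges of 3 mm, from mice perfused with saline. Treatment is described as continuous. The labels give no dose, antibody clone or control antibody for the injured group. The labels give 4 mice per group and mark the samples as biological replicates.

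LFA1, made of the integrin chains encoded by Itgal and Itgb2, and VLA4, made of those encoded by Itga4 and Itgb1, let leukocytes in the blood hold on to the vessel wall. LFA1 binds the ICAM proteins, and VLA4 binds VCAM1 and fibronectin. Blocking them is a common way to keep monocytes, neutrophils and lymphocytes from entering brain tissue. In an injured brain, incoming monocytes and resident microglia clear debris, while fibroblasts of the meninges and vessels lay down collagens that form a scar. The series title names myeloid responses in damage and repair after such an injury, and the comparison addresses how injured tissue differs when mice receive these antibodies. Leukocyte entry itself was not measured in these data.

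Values are normalised CPM, which are reads over a gene's exons scaled to a common library size. A gene is called higher or lower where edgeR's quasi-likelihood test, fitted on all tested genes of the 8 libraries, gave a Benjamini-Hochberg adjusted p under 0.05. Fold changes are log2 of antibody-treated over injured, with their standard error, and a value such as x ± y SE is a log2 fold change. Of 25749 listed genes, 14595 passed the filter on low counts and were tested, with 1058 (7.25%) called higher and 1072 (7.34%) called lower in antibody-treated mice. The called genes included 169 that were at least 2-fold higher (1.16% of those tested) and 23 that were at least 2-fold lower (0.158%). The median fold change over all tested genes was 0.0075 on the log2 scale. In 3252 tested genes (22.3%) no injured library overlapped any antibody-treated one.

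Measures of library quality also differed between the groups. Exon reads per library ranged from 13330379 to 13917157 in antibody-treated mice and from 15507462 to 16121577 in injured mice. Reads across exon junctions, which come from spliced RNA, made up 26.8 ± 1.54% (SD, n = 4) of non-mitochondrial exon reads with the antibodies and 31.1 ± 1.15% without. The groups overlapped in neither measure, and each gave an exact two-sided permutation p = 0.0286 (0.0429 adjusted over 6 library measures), the smallest that 4 against 4 libraries allow. Calls also depended on the GC content of the transcript, the share of bases that are G or C. In the lowest of 5 equal bins of genes by GC content, 18.7% were called higher and 0.274% lower, while in the highest bin 1.30% were higher and 24.6% lower. After each library was corrected for its smooth trend over GC content and transcript length, 5.89% to 7.13% of each bin were higher and 6.85% to 9.76% were lower. Of the 169 genes that were at least 2-fold higher, 153 were still called higher after this correction, and 23 of 23 at least 2-fold lower ones were still lower. Counts after correction are given beside most groups of genes, and the part of these library differences in any result was not tested.

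**Figure D1:**
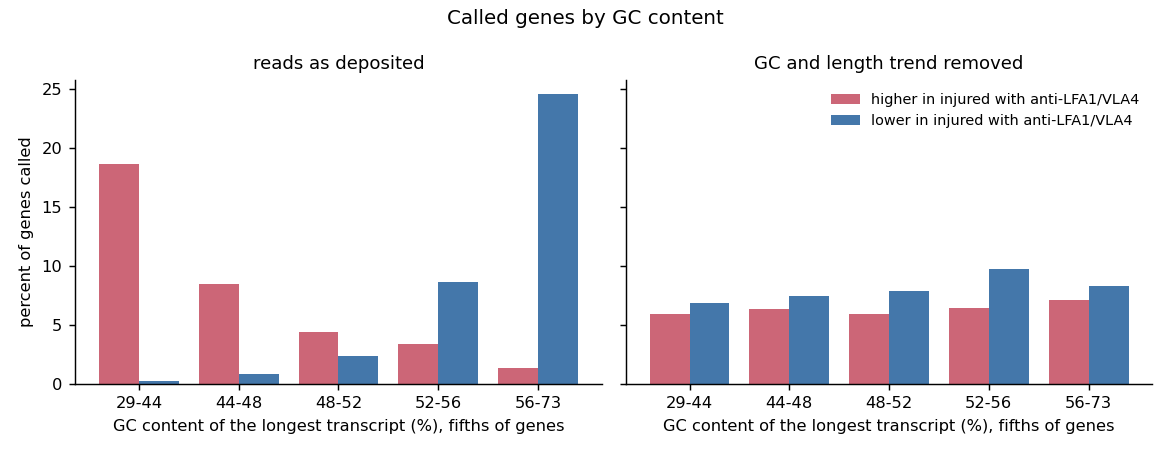
Percent of tested genes called higher or lower in antibody-treated than in injured libraries (vertical axis), in 5 equal bins of genes by GC content in percent (horizontal axis), with reads as deposited (left) and after correction for GC and length (right). The share called higher is 18.7% in the lowest and 1.30% in the highest bin on the left, and all values on the right lie between 5.89% and 9.76%.

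The tissue had the transcripts of brain in both groups. Slc17a7, the vesicular glutamate transporter of cortical neurons, stood at 928, 983, 927 and 1158 CPM in the 4 injured libraries and 749, 673, 765 and 587 CPM in the 4 antibody-treated libraries. Gfap, the filament protein of astrocytes, averaged 721 ± 26.2 and 717 ± 50.8 CPM (SD, n = 4 each) and was not called (log2 change of -0.01 with SE 0.07, adjusted p = 0.95 by edgeR).

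Transcripts of the blocked integrins were present in all 8 libraries and none of the 4 chains was called. Itgal stood at 0.839, 0.819, 0.98 and 1.52 CPM in the 4 injured libraries and 1.704, 1.802, 1.599 and 1.66 CPM in the 4 antibody-treated libraries (log2 change of 0.69 with SE 0.23, adjusted p = 0.0654 by edgeR). Its lowest antibody-treated library lay above its highest injured one, but the fold change missed the threshold. Itgb2, the partner chain, had a log2 fold change of 0.34 ± 0.13 SE (edgeR adjusted p = 0.0934). Values for the VLA4 chains were 0.26 ± 0.22 SE for Itga4 (adjusted p = 0.449) and 0.24 ± 0.08 SE for Itgb1 (adjusted p = 0.0728). RNA levels say nothing of whether the antibody was bound to the protein. Among the ligands, Vcam1 rose from 31.6 ± 2.02 to 39.2 ± 2.83 CPM (mean ± SD, n = 4; log2 change of 0.31 with SE 0.08, adjusted p = 0.033 by edgeR) and Fn1, fibronectin, from 49.4 ± 3.398 to 66.3 ± 10.4 CPM (log2 change of 0.42 with SE 0.11, adjusted p = 0.0299 by edgeR). Icam1 (0.32, adjusted p = 0.0923) and Icam2 (-0.12, adjusted p = 0.701) were not called. Icam5, an ICAM of forebrain neurons, fell from 228 ± 14.2 to 177 ± 14.1 CPM (log2 change of -0.36 with SE 0.08, adjusted p = 0.0166 by edgeR). It was not called after correction for GC and length (-0.02, adjusted p = 0.818). Its call was also lost without any 1 of injured replicates 2 or 3 or antibody-treated replicates 1 or 2 (adjusted p 0.0506 to 0.0677). Vcam1 was not called after correction for GC and length (0.03, adjusted p = 0.825). The same held without any 1 of injured replicates 2, 3 or 4 or antibody-treated replicates 1 or 2 (adjusted p 0.0676 to 0.111). The call of Fn1 was lost without any 1 of injured replicates 1 to 4 or antibody-treated replicates 1 or 2 (adjusted p 0.0512 to 0.0867). Fn1 was called after correction for GC and length (0.56, adjusted p = 3.95e-05 by edgeR). In all, 3 of 18 tested members were higher and 1 lower in the list of integrins and adhesion partners, against 7.25% and 7.34% of all tested genes.

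Of 33 tested genes of fibrillar collagens and interstitial matrix, 17 rose and 3 fell, and Col3a1 had the smallest p of all tested genes. Col3a1, which encodes type III collagen of loose connective tissue (ENSMUSG00000026043, GRCm38 chromosome 1, 45311538 to 45349706, plus strand, 57 exons), stood at 11.7, 10.5, 9.74 and 11.2 CPM in the 4 injured libraries and 130.5, 134, 138 and 117 CPM in the 4 antibody-treated libraries. Every antibody-treated library was about an order of magnitude above every injured one (log2 change of 3.59 with SE 0.09, adjusted p = 1.43e-08 by edgeR, 12.01-fold). Col1a1, a chain of type I collagen, stood at 23.6, 22.4, 22.4 and 24.7 CPM without the antibodies and 87.4, 86.9, 92.5 and 82.9 CPM with them (log2 change of 1.91 with SE 0.07, adjusted p = 1.17e-07 by edgeR). Its partner chain gene Col1a2 stood at 33.9, 33.3, 35.5 and 34.6 CPM without the antibodies and 109, 110.0, 115 and 115 CPM with them (log2 change of 1.71 with SE 0.06, adjusted p = 1.17e-07 by edgeR). Libraries within each group were close together for both genes and the groups lay far apart. Postn, periostin of scars and healing wounds, rose from 2.64 ± 0.257 to 17.5 ± 1.47 CPM (mean ± SD, n = 4; log2 change of 2.73 with SE 0.11, adjusted p = 3.28e-07 by edgeR). Col6a3, a chain of the beaded type VI collagen, rose by 0.98 ± 0.13 SE on the log2 scale, and Ogn, the small leucine-rich proteoglycan osteoglycin, by 1.15 ± 0.18 SE. Dpt, which encodes dermatopontin of fibroblast matrix, had 4 reads over the injured libraries and 389 over the antibody-treated ones, and was called higher (edgeR adjusted p = 3.48e-06). Dpt lay below the count filter in every injured library and passed through the antibody-treated group. Of the 33 tested members of the list, 32 lay above that filter in all injured libraries.

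In the list of fibrillar collagens and interstitial matrix, 17 of 33 tested members were higher and 3 lower, with a median log2 fold change of 0.57 against 0.0075 over all tested genes. After correction for GC and length these counts were 24 higher and 0 lower. Summed CPM of the list was 819.6 to 869 CPM in injured and 1245 to 1306 CPM in antibody-treated libraries. Among enzymes that shape matrix, 12 of 32 tested members were higher and 1 lower (14 higher and 1 lower after correction). Mmp2, a gelatinase, stood at 3.42, 4.85, 4.29 and 4.07 CPM in the 4 injured libraries and 12, 12.5, 11.9 and 11.3 CPM in the 4 antibody-treated libraries (log2 change of 1.52 with SE 0.12, adjusted p = 5.02e-05 by edgeR). The collagenase gene Mmp13 rose from 0.233 ± 0.0758 to 1.84 ± 0.222 CPM (mean ± SD, n = 4; log2 change of 2.93 with SE 0.27, adjusted p = 0.000167 by edgeR). Mmp3 (1.83 ± 0.20 SE) and Mmp19 (1.22 ± 0.16 SE), which encode further matrix proteases, rose as well. For Mmp2, Mmp3 and Mmp19 no injured library reached the lowest antibody-treated one. This held for Mmp13 too, but it lay below the count filter in every injured library and passed through the antibody-treated group. Of the 32 tested members 29 lay above that filter in all injured libraries.

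**Figure D2:**
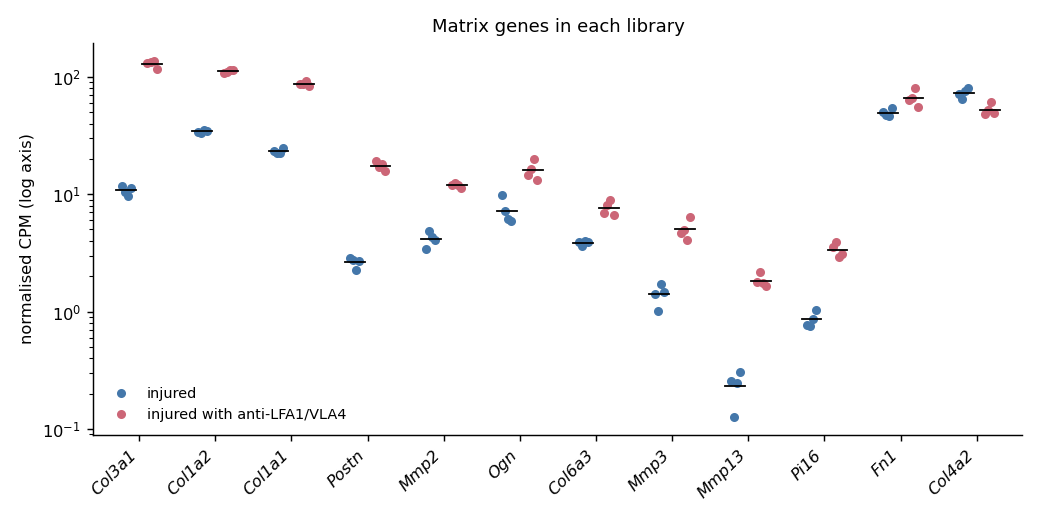
Normalised CPM (log axis) of 12 matrix genes in each of the 4 injured and 4 antibody-treated libraries (points), with the group means as lines. Col3a1 sits near 11 CPM in injured and above 117 CPM in every antibody-treated library, while Col4a2, a basement membrane collagen, is lower with the antibodies.

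In the vascular basement membrane list, 1 of 18 tested members was higher and 3 lower, with a median of -0.14, but after correction for GC and length 3 higher and 0 lower. Col4a2, a chain of type IV collagen, stood at 71.1, 64.4, 76.3 and 80.4 CPM in the 4 injured libraries and 48.7, 51.7, 60.5 and 48.9 CPM in the 4 antibody-treated libraries (log2 change of -0.48 with SE 0.10, adjusted p = 0.0126 by edgeR). It lost its call after correction (-0.15, adjusted p = 0.113). Cells of the vessel wall showed few calls: 1 of 24 tested members was higher and 1 lower for barrier endothelium, 2 of 16 tested members were higher and 0 lower for pericytes and vascular smooth muscle, and 3 of 26 tested members were higher and 0 lower for angiogenic ligands and receptors. Shares in these 3 lists ran from 4.17% to 12.5% higher, near the 7.25% of all tested genes. One angiogenic member was Fgf2, a fibroblast growth factor, at 0.69 ± 0.13 SE (adjusted p = 0.0105). Among markers of meningeal fibroblasts 1 of 22 tested members was higher and 1 lower (5 higher and 0 lower after correction). The higher one was Pi16, a marker of adventitial fibroblasts, which rose from 0.855 ± 0.126 to 3.36 ± 0.445 CPM (mean ± SD, n = 4; log2 change of 1.96 with SE 0.18, adjusted p = 0.000211 by edgeR).

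Most skeletal muscle transcripts were also higher with the antibodies. Ckm, muscle creatine kinase (ENSMUSG00000030399, chromosome 7, 19404776 to 19422841, plus strand, 10 exons), had 1 read over the 4 injured libraries and 715 over the 4 antibody-treated ones, at 13.04, 12.7, 11.4 and 15.6 CPM. The ratio of these reads per library size was 844 with an exact 95% interval of 151 to 33381, which covers counting error only. Myh1, a fast myosin heavy chain, stood at 0.452, 1.01, 1.04 and 1.09 CPM in the 4 injured libraries and 26.2, 26.5, 28.9 and 25.03 CPM in the 4 antibody-treated libraries (log2 change of 4.87 with SE 0.17, adjusted p = 1.17e-07 by edgeR). Myl1 (5.52 ± 0.19 SE), Tnnt3 (6.29 ± 0.30 SE) and Atp2a1 (3.49 ± 0.12 SE), which encode a myosin light chain, troponin T and the calcium pump of fast fibres, rose in every antibody-treated library. Acta1, skeletal actin, rose from 10.8 ± 0.668 to 41.1 ± 7.097 CPM (mean ± SD, n = 4; log2 change of 1.93 with SE 0.13, adjusted p = 1.54e-05 by edgeR). Actc1, cardiac actin, had 0 reads in the injured libraries and 65 with the antibodies, at least 25.6-fold higher against a floor of 3 reads over the group.

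Of 27 skeletal muscle genes, all tested, 22 were higher and 1 lower, but only 14 of them lay above the count filter in all injured libraries, so the others passed through the antibody-treated group. Summed CPM of the list was 162 to 184 CPM in injured and 319 to 398 CPM in antibody-treated libraries. Within the injured sum the muscle marker Ckm had 1 read. Actc1 is not a member of this list. Of 15 bone genes 10 were tested, only 6 of them above the filter in all injured libraries, with 4 higher (2 without antibody-treated replicate 2) and 0 lower, and a sum of 33.8 to 36.2 CPM in injured and 42.3 to 46.9 CPM in antibody-treated libraries. Ibsp, bone sialoprotein, rose from 0.156 ± 0.0355 to 1.13 ± 0.303 CPM (mean ± SD, n = 4; log2 change of 2.78 with SE 0.35, adjusted p = 0.00127 by edgeR). Of 12 adipose genes 5 were tested with 2 higher and 0 lower (sum 19.8 to 23.04 CPM in injured and 21.1 to 27.8 CPM in antibody-treated libraries), and of 11 epidermis genes 6 were tested with 0 called by edgeR or limma-voom, 1 by DESeq2 and 1 at an unadjusted edgeR p under 0.05 (sum 26.7 to 31.2 CPM in injured and 26.7 to 35.9 CPM in antibody-treated libraries). The part of such tissue in the rise of the collagen and protease genes was not tested. In bulk RNA, more cells of a type and more RNA per cell cannot be told apart, here and in every group of genes that follows.

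Of 18 tested genes of recruited monocytes and border macrophages, 9 were higher in antibody-treated tissue and 0 were lower. Lyz2, lysozyme of myeloid cells (ENSMUSG00000069516, chromosome 10, 117277331 to 117282321, minus strand, 4 exons), stood at 80.6, 101, 90.1 and 85.3 CPM in the 4 injured libraries and 221, 205, 167 and 243 CPM in the 4 antibody-treated libraries (log2 change of 1.23 with SE 0.12, adjusted p = 0.000265 by edgeR). Ccr2, the chemokine receptor that inflammatory monocytes use to leave the marrow, stood at 0.71, 0.693, 0.367 and 0.425 CPM in the 4 injured libraries and 1.704, 1.87, 2.11 and 1.66 CPM in the 4 antibody-treated libraries (log2 change of 1.74 with SE 0.25, adjusted p = 0.00266 by edgeR). For both, the lowest antibody-treated library was above the highest injured one. Ms4a6c (1.13 ± 0.14 SE) and Ms4a6b (1.38 ± 0.20 SE), membrane proteins of monocytes and macrophages, rose as well. Of 25 listed genes 18 were tested, 14 of them above the filter in all injured libraries, with 9 higher and 0 lower and 11 higher and 0 lower after correction for GC and length. Ccl8, a chemokine that draws monocytes, rose from 0.217 ± 0.104 to 1.87 ± 0.617 CPM (mean ± SD, n = 4; log2 change of 3.04 with SE 0.38, adjusted p = 0.00129 by edgeR), and the interferon-induced chemokine gene Cxcl10 by 1.37 ± 0.27 SE. In the chemokine list, 5 of 16 tested members were higher and 0 lower, but only 9 of the tested members, not Ccl8 among them, lay above the count filter in all injured libraries. In that list 8 were higher without antibody-treated replicate 3.

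Leading markers of resident microglia were not called, while several genes of their activated state rose. Cx3cr1, the fractalkine receptor of microglia, stood at 70.9, 73.8, 71.2 and 72.7 CPM in the 4 injured libraries and 69.3, 71.2, 73.6 and 75.3 CPM in the 4 antibody-treated libraries and was not called (log2 change of 0.00 with SE 0.06, adjusted p = 0.972 by edgeR). Tmem119, a surface marker of resident microglia, was not called either (0.03 ± 0.09 SE, adjusted p = 0.846). Gpr34 (0.56 ± 0.11 SE) and P2ry12 (0.55 ± 0.12 SE), purinergic-type receptors of resting microglia, were called higher with reads as deposited. After correction for GC and length neither was called (adjusted p = 0.549 for Gpr34 and 0.112 for P2ry12), and P2ry12 also lost its call without antibody-treated replicate 2 (adjusted p = 0.0556). In the list of homeostatic microglia 3 of 16 tested members were higher and 1 lower (1 higher without antibody-treated replicate 2), and after correction 0 higher and 1 lower. In the list of the disease-associated state, which microglia adopt around debris and damaged myelin, 9 of 24 tested members were higher and 0 lower (median 0.31, 11 higher and 1 lower after correction). Gpnmb, a transmembrane glycoprotein of lipid-laden phagocytes, stood at 35.4, 36.2, 39.5 and 39.5 CPM in the 4 injured libraries and 65.4, 62.3, 67.5 and 56.5 CPM in the 4 antibody-treated libraries (log2 change of 0.74 with SE 0.08, adjusted p = 0.000539 by edgeR). Clec7a, the beta-glucan receptor Dectin-1, stood at 7.42, 5.92, 6.43 and 4.68 CPM without the antibodies and 14.6, 13.2, 14.03 and 15.1 CPM with them (log2 change of 1.22 with SE 0.13, adjusted p = 0.000554 by edgeR). All 4 antibody-treated libraries were above all 4 injured ones for both genes. Atp6v0d2, a proton pump subunit, rose by 1.58 ± 0.19 SE on the log2 scale and Lpl, lipoprotein lipase, by 0.73 ± 0.10 SE.

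Of 30 lysosome genes 8 were higher and 0 lower, but only 3 to 5 were higher without any 1 of injured replicates 1 to 4 or antibody-treated replicates 1, 2 or 4. Ctsc, cathepsin C, rose from 11.7 ± 1.54 to 19.8 ± 0.977 CPM (mean ± SD, n = 4; log2 change of 0.76 with SE 0.11, adjusted p = 0.00242 by edgeR), and Cd68, a lysosomal glycoprotein of macrophages, by 0.57 ± 0.10 SE. Fcgr2b, the inhibitory IgG receptor, rose from 7.91 ± 0.594 to 12.6 ± 1.38 CPM (mean ± SD, n = 4; log2 change of 0.67 with SE 0.11, adjusted p = 0.00532 by edgeR). Fcer1g, the signalling chain shared by activating Fc receptors, rose by 0.54 ± 0.11 SE. In the list of Toll-like and Fc gamma receptors, 4 of 15 tested members were higher and 0 lower. Cd5l (1.37 ± 0.18 SE), a secreted macrophage protein, and Cd36 (1.38 ± 0.26 SE), a scavenger receptor, were the only called members among 19 tested scavenger and efferocytosis receptors, a share of 10.5% near the 7.25% of all tested genes.

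**Figure D3:**
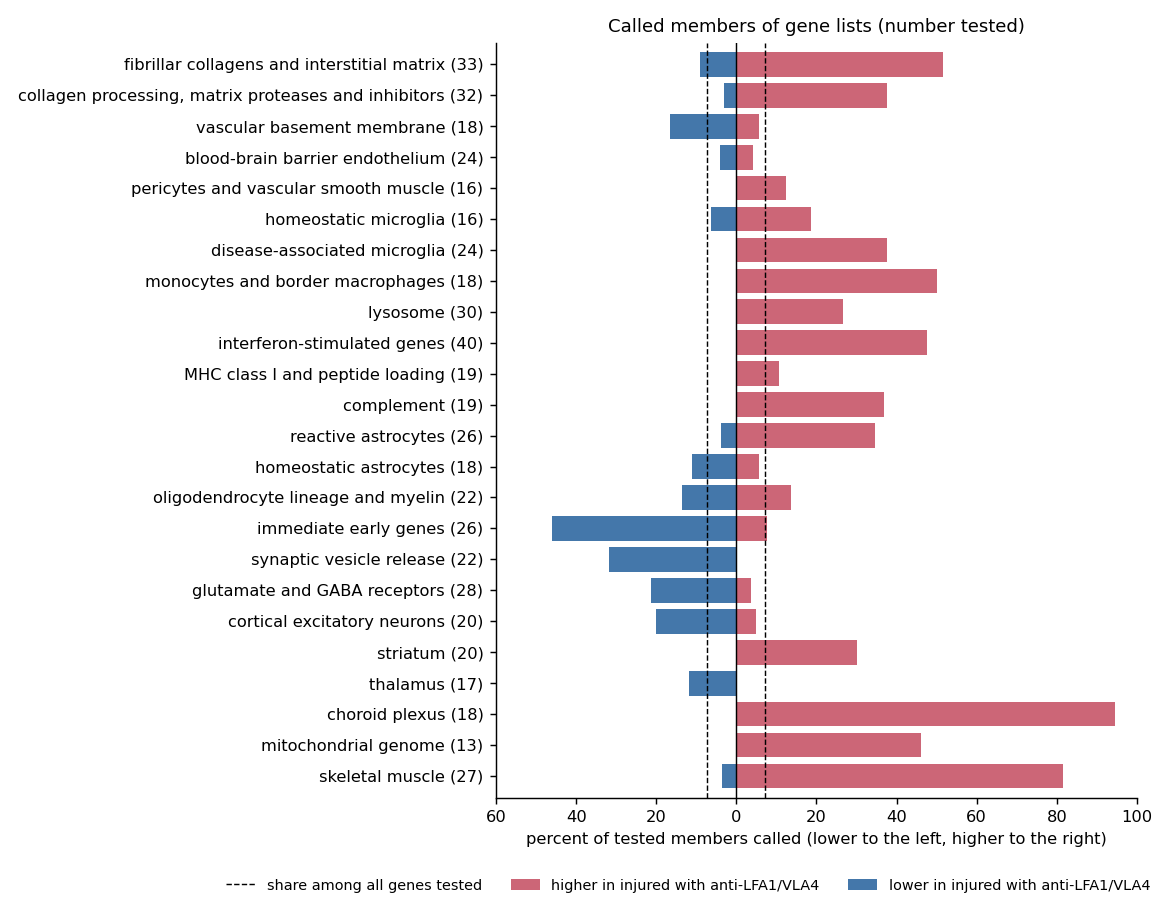
Percent of tested members called lower (left) or higher (right) in antibody-treated than in injured libraries for 24 gene lists, with the number tested in parentheses and the shares among all tested genes as dashed lines. Of the lists shown, choroid plexus and skeletal muscle reach the furthest right and immediate early genes the furthest left. Further lists, those of blood cells and hypothalamus among them, are not plotted.

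Class II antigen presentation genes rose in part. H2-Aa, the alpha chain of an MHC class II protein that shows peptides to helper T cells, stood at 7.29, 8.32, 8.33 and 7.47 CPM in the 4 injured libraries and 15.7, 14.6, 13.6 and 15.9 CPM in the 4 antibody-treated libraries (log2 change of 0.93 with SE 0.10, adjusted p = 0.000407 by edgeR). Cd74, the invariant chain of class II, stood at 17.7, 22.5, 19.8 and 20.1 CPM without the antibodies and 34.3, 31.8, 31.04 and 44.5 CPM with them (log2 change of 0.82 with SE 0.13, adjusted p = 0.00417 by edgeR). In neither did the groups overlap. Of 11 class II genes 8 were tested, with 4 higher and 0 lower. That number was 2 without any 1 of injured replicates 1 to 4 or antibody-treated replicates 1, 2 or 4. B2m, the light chain of MHC class I, rose from 110.1 ± 2.33 to 172 ± 29.5 CPM (mean ± SD, n = 4; log2 change of 0.64 with SE 0.11, adjusted p = 0.00712 by edgeR), but not after correction for GC and length (0.11, adjusted p = 0.296). In the class I list, 2 of 19 tested members were higher and 0 lower, a share of 10.5% near the 7.25% of all tested genes. After correction 5 were higher and 0 lower.

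Of 43 interferon-stimulated genes, which cells switch on after interferon binds its receptor, 40 were tested (36 of them above the count filter in all injured libraries) and 19 were higher and 0 lower (median 0.37). After correction for GC and length 16 were higher. This count leaned on single libraries. Leaving out injured replicate 1, 2, 3 or 4 gave 12, 10, 7 or 11 higher members, and leaving out antibody-treated replicate 1 or 2 gave 8 or 10. Ifit1, which binds viral RNA ends (ENSMUSG00000034459, chromosome 19, 34640871 to 34650009, plus strand, 2 exons), stood at 3.74, 3.403, 3.67 and 3.28 CPM in the 4 injured libraries and 8.52, 6.42, 6.11 and 8.24 CPM in the 4 antibody-treated libraries (log2 change of 1.05 with SE 0.14, adjusted p = 0.00206 by edgeR). Rsad2, the antiviral enzyme viperin, rose from 1.55 ± 0.289 to 3.002 ± 0.183 CPM (mean ± SD, n = 4; log2 change of 0.94 with SE 0.17, adjusted p = 0.00809 by edgeR). Ifi27l2a, an interferon-induced mitochondrial protein, rose by 1.65 ± 0.25 SE, Oas2, a sensor of double-stranded RNA, by 2.20 ± 0.34 SE and Trim30a by 1.01 ± 0.18 SE. These 5 genes kept their call without any 1 library.

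The 250 bases before the start of these genes, from RefSeq's GRCm38.p6 annotation, were searched on both strands for GAAA, any 2 bases and GAAA again, the core of the element that interferon-activated factors bind. Of the 40 tested members 30 matched a promoter in that table. The motif was in 5 of the 12 matched members that were higher and in 11 of the 18 that were not called, against 3.11% of the 11215 tested genes with a promoter there. A match is a run of letters and not a shown binding site. The windows of Ifit1 and Rsad2, a pair of higher members that hold it, are printed 5′ to 3′ on the gene's strand, with matches in capitals. On the strand shown, the motif reads as its reverse complement, and Ifit1 holds 2 copies.
Ifit1 (GRCm38 chr19:34640639-34640888, plus strand): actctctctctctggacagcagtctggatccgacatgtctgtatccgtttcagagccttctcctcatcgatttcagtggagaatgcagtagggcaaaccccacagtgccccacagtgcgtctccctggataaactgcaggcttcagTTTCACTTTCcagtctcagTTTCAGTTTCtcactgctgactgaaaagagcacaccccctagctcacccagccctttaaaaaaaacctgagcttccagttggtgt
Rsad2 (GRCm38 chr12:26456453-26456702, minus strand): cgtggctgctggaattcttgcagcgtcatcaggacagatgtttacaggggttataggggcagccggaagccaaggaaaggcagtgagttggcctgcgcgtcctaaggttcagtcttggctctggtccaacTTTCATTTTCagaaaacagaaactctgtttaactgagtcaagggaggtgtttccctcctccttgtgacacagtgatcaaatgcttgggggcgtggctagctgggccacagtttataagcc

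Among complement genes, whose products tag debris and synapses for uptake, 7 of 19 tested members were higher and 0 lower (median 0.51, 11 higher and 0 lower after correction for GC and length). C3, the central component, stood at 19.1, 20.7, 20.8 and 22.8 CPM in the 4 injured libraries and 38.5, 39.5, 41.1 and 37.3 CPM in the 4 antibody-treated libraries (log2 change of 0.91 with SE 0.08, adjusted p = 0.000133 by edgeR). Its groups lay apart with a narrow spread in each. C1s1, a protease of the classical pathway, rose by 1.24 ± 0.14 SE, and the inhibitors Cd59a and Serping1 rose by 0.83 ± 0.12 SE and 0.63 ± 0.10 SE. Both activators and inhibitors were thus among the higher members.

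Among reactive astrocyte genes 9 of 26 tested members were higher and 1 lower, with 5 higher without injured replicate 3 or 4. Serpina3n, a protease inhibitor released by reactive astrocytes, rose from 75.3 ± 3.41 to 102 ± 6.19 CPM (mean ± SD, n = 4; log2 change of 0.44 with SE 0.07, adjusted p = 0.00485 by edgeR). Srgn (0.89 ± 0.12 SE), the proteoglycan serglycin, and Emp1 (0.85 ± 0.16 SE), a membrane protein, rose too. Gfap, the leading marker of the state, did not change detectably, as given above. Among genes of repair and membrane traffic, Anxa1, the anti-inflammatory annexin, rose by 1.08 ± 0.15 SE and Lgals3, galectin-3 of phagocytes, by 1.16 ± 0.18 SE. In their list, 4 of 19 tested members were higher and 1 lower, and 9 were higher without antibody-treated replicate 3.

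Neutrophil genes were higher in 6 of 8 tested members. Lcn2, lipocalin-2 of neutrophils and reactive astrocytes, stood at 8.26, 7.18, 8.94 and 8.75 CPM in the 4 injured libraries and 22.8, 22.9, 19.04 and 27.5 CPM in the 4 antibody-treated libraries (log2 change of 1.48 with SE 0.13, adjusted p = 0.000114 by edgeR). S100a8 stood at 0.645, 0.567, 0.306 and 0.486 CPM without the antibodies and 4.89, 3.03, 2.83 and 5.97 CPM with them (log2 change of 3.04 with SE 0.33, adjusted p = 0.000539 by edgeR), and S100a9, which forms calprotectin with it, rose by 2.94 ± 0.29 SE. Ltf, lactoferrin of neutrophil granules, rose by 2.70 ± 0.33 SE. Of 16 neutrophil genes 8 were tested, only 3 of them above the filter in all injured libraries, with 6 higher and 0 lower. The list summed to 22.9 to 25.7 CPM in injured and 44.8 to 56.5 CPM in antibody-treated libraries. Csf3r, which was not called, held a mean of 11.5 CPM of it in injured and 11.6 CPM in antibody-treated libraries. Of 24 T and NK cell genes, 4 were tested and 0 were called by edgeR, DESeq2 or limma-voom, with 0 at an unadjusted p under 0.05. Cd4 (0.10 ± 0.10 SE, adjusted p = 0.525) and the kinase gene Lck (-0.28 ± 0.28 SE, adjusted p = 0.524) were among them. The other 20 were too low to test, and the summed CPM of the list was 26.9 to 32.2 CPM in injured and 26.1 to 36.7 CPM in antibody-treated libraries.

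Transcripts of antibody-secreting cells separated the groups. Igkc, the constant part of the kappa light chain (ENSMUSG00000076609, chromosome 6, 70726435 to 70726966, plus strand, 1 exon), stood at 0.775, 0.441, 0.551 and 0.729 CPM in the 4 injured libraries and 34.4, 31.6, 25.1 and 40.2 CPM in the 4 antibody-treated libraries (log2 change of 5.70 with SE 0.21, adjusted p = 1.17e-07 by edgeR). Ighg1, the constant part of IgG1, stood at 0.0645, 0.063, 0.0612 and 0.243 CPM without the antibodies and 20.6, 21.3, 14.2 and 27.8 CPM with them (log2 change of 7.48 with SE 0.36, adjusted p = 1.03e-06 by edgeR). Igha had 1 read in the injured libraries and 94 in the antibody-treated ones, and Ighg2b had 2 and 112. Jchain, which links IgA and IgM units, rose from 0.28 ± 0.0615 to 3.76 ± 0.715 CPM (mean ± SD, n = 4; log2 change of 3.70 with SE 0.25, adjusted p = 1.76e-05 by edgeR). Ighm, the heavy chain of IgM that naive B cells carry, was not called (0.04 ± 0.10 SE, adjusted p = 0.822). Of 22 B and plasma cell genes 10 were tested, 4 of them above the filter in all injured libraries, with 7 higher and 0 lower. The list summed to 109.5 to 118 CPM in injured and 168 to 225 CPM in antibody-treated libraries. Most of the injured sum came from Xbp1 (mean 68.4 CPM, and 89.0 CPM with the antibodies) and Ighm (36.2 and 37.2 CPM).

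Of 12 red blood cell genes 6 were tested and 5 of them rose. Hbb-bs, adult beta globin, stood at 15.4, 19.9, 17.4 and 18.9 CPM in the 4 injured libraries and 82.5, 77.1, 58.3 and 102 CPM in the 4 antibody-treated libraries (log2 change of 2.16 with SE 0.16, adjusted p = 3.88e-05 by edgeR). Hba-a1, alpha globin, rose by 1.99 ± 0.19 SE. Of their reads 52.2% and 33.5% matched 1 place, since globin genes have near-identical copies, so the split between copies is uncertain. The list summed to 47.4 to 54.01 CPM in injured and 149 to 274 CPM in antibody-treated libraries. Blood left in the vessels holds red cells and leukocytes, and its part in the rise of neutrophil, monocyte and B cell genes was not tested.

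**Figure D4:**
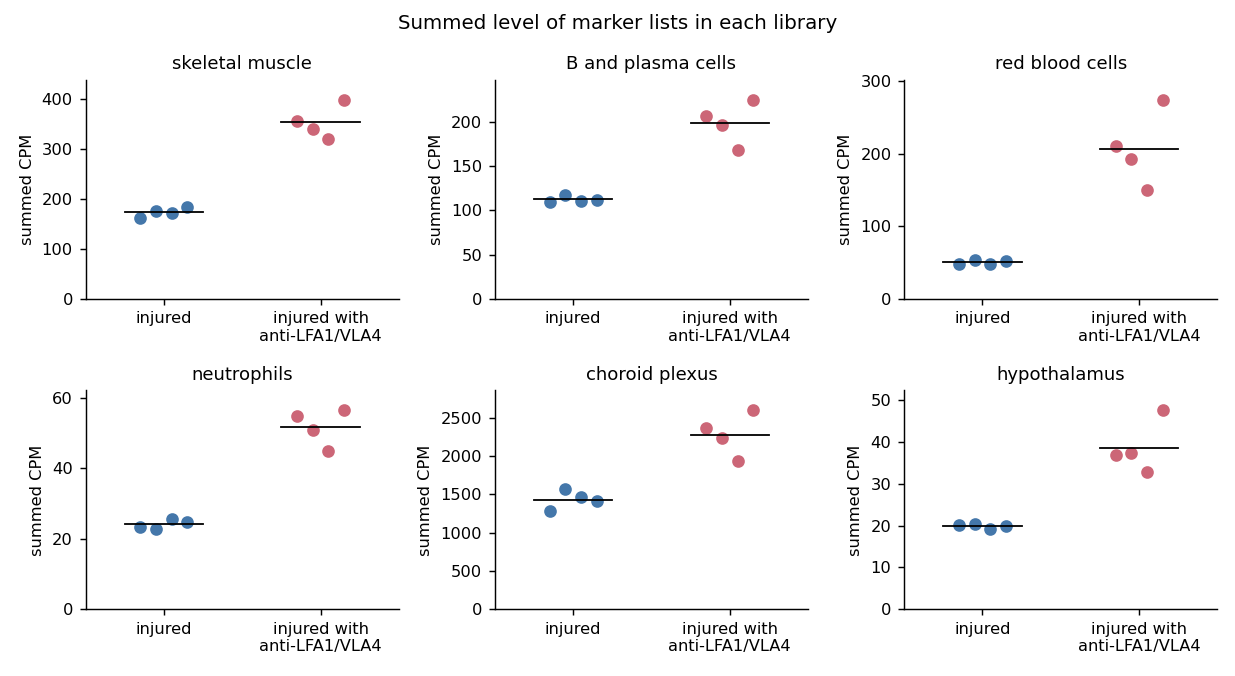
Summed normalised CPM of 6 marker lists (one panel each, vertical axes from 0) in each of the 4 injured and 4 antibody-treated libraries (points), with group means as lines. In all 6 panels the groups do not overlap, and among antibody-treated libraries replicate 3 is lowest and replicate 4 highest.

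Among the antibody-treated libraries, sums for muscle, B and plasma cells, red cells, neutrophils, choroid plexus and hypothalamus had the same order at the ends. Replicate 3 was lowest and replicate 4 highest in each of the 6. This order was not particular to them. It also held for T and NK cells (26.1 and 36.7 CPM), nuclear respiratory chain (5630 and 8192 CPM), disease-associated microglia (4544 and 6460 CPM) and lysosome (5824 and 6988 CPM). It was reversed for other lists, such as cortical excitatory neurons (4387 and 3756 CPM) and glutamate and GABA receptors (5362 and 3908 CPM). The same 2 libraries lay at the ends of the second principal component, which held 28.5% of the variance, while the first (46.6%) separated the groups. Their GC trends were the ends among antibody-treated libraries too, at -0.252 and 0.00128 log2 units per 10 points of GC content. Col3a1 went the other way, with 138 CPM in replicate 3 and 117 CPM in replicate 4.

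Of 26 tested immediate early genes, which nerve cells switch on soon after activity, 12 were lower. Btg2, an early-response gene that slows cell growth (ENSMUSG00000020423, chromosome 1, 134075170 to 134079120, minus strand, 2 exons), stood at 35.8, 35.5, 37.05 and 36.6 CPM in the 4 injured libraries and 16.1, 16.6, 15.8 and 15.5 CPM in the 4 antibody-treated libraries (log2 change of -1.18 with SE 0.07, adjusted p = 6.2e-06 by edgeR). The 4 values of each group lay within a narrow band, and the bands were about 20 CPM apart. Arc, a postsynaptic protein of plasticity, stood at 268, 264, 263 and 284 CPM without the antibodies and 170.1, 159.8, 159 and 167 CPM with them (log2 change of -0.72 with SE 0.06, adjusted p = 0.000124 by edgeR). Dusp1, a phosphatase that shuts off MAP kinases, stood at 41.6, 43.3, 42.6 and 46.96 CPM without the antibodies and 26.2, 22.6, 22.8 and 21.3 CPM with them (log2 change of -0.91 with SE 0.09, adjusted p = 0.000212 by edgeR). Npas4, a transcription factor specific to neurons, fell from 31.1 ± 1.73 to 18.7 ± 1.16 CPM (mean ± SD, n = 4; log2 change of -0.74 with SE 0.08, adjusted p = 0.000567 by edgeR). The AP-1 subunit genes Junb (-0.85 ± 0.11 SE) and Fos (-0.65 ± 0.08 SE) and the early gene Ier2 (-0.95 ± 0.15 SE) fell in every antibody-treated library relative to every injured one. Ccn1, a matrix protein induced by growth factors, fell from 12.2 ± 0.545 to 6.04 ± 0.572 CPM (log2 change of -1.02 with SE 0.10, adjusted p = 0.000285 by edgeR).

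Not every early gene was lower. In the same list 2 were higher, and after correction for GC and length 11 were lower and 7 higher. Nr4a3, an orphan nuclear receptor of the same early wave, rose from 23 ± 1.62 to 36.5 ± 1.44 CPM (mean ± SD, n = 4; log2 change of 0.67 with SE 0.08, adjusted p = 0.000926 by edgeR). Egr1, a zinc finger factor, stood at 257, 245, 243 and 257 CPM in the 4 injured libraries and 259.8, 262, 266 and 238 CPM in the 4 antibody-treated libraries and was not called (log2 change of 0.03 with SE 0.06, adjusted p = 0.755 by edgeR). It was called higher after correction (0.26, adjusted p = 0.00304). The count of lower members was 10 to 12 with any 1 library left out.

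**Figure D5:**
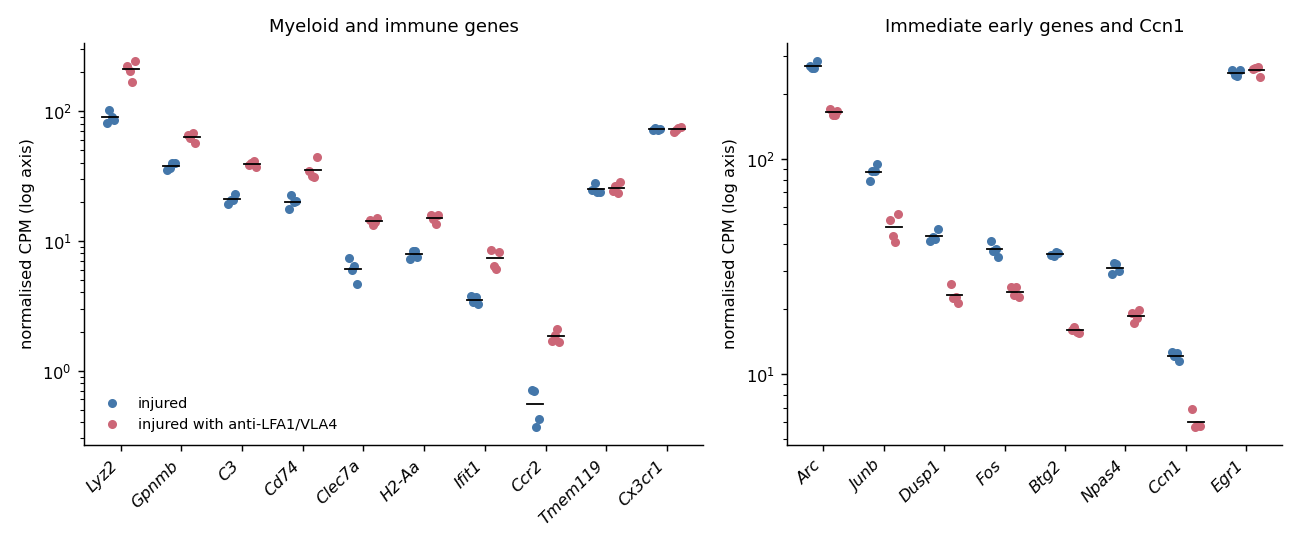
Normalised CPM (log axes) of 10 myeloid and immune genes (left) and of 7 immediate early genes and Ccn1 (right) in each of the 4 injured and 4 antibody-treated libraries (points), with group means as lines. On the left all but Tmem119 and Cx3cr1 are higher with the antibodies, and on the right all but Egr1 are lower.

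The same promoter windows were searched for TGACGTCA, the full cAMP response element that the factor CREB binds in early genes. The motif is its own reverse complement. Of 26 tested early genes 21 had a promoter in the table, and the motif was in 2 of the 10 matched members that were lower and in 0 of the 11 others, against 2.98% of the 11215 tested genes with a promoter. These were Btg2 and Dusp1, whose windows are printed 5′ to 3′ on the gene's strand with the motif in capitals.
Btg2 (GRCm38 chr1:134079156-134079405, minus strand): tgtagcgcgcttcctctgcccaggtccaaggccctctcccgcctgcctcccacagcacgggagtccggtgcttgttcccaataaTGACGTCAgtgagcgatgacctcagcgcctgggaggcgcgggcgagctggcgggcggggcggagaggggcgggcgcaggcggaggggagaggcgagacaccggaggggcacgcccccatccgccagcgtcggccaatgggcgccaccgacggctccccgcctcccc
Dusp1 (GRCm38 chr17:26508473-26508722, minus strand): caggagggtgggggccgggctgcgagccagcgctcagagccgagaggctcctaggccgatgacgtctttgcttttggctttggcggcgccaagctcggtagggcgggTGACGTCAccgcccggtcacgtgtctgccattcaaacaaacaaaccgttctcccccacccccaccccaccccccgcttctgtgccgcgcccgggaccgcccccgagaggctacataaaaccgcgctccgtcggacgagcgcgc

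Synaptic and cortical genes had more lower than higher calls, with small fold changes. In the synaptic vesicle list 0 of 22 tested members were higher and 7 lower, and 0 higher and 5 lower after correction for GC and length. The lower count was 4 without injured replicate 3, injured replicate 4 or antibody-treated replicate 1, and 2 without antibody-treated replicate 2. Slc17a7, whose 8 values are given above, fell by 0.53 on the log2 scale (SE 0.10, edgeR adjusted p = 0.0117). Stx1a, a membrane fusion protein of the presynapse, had -0.38 ± 0.08 SE and lost its call without antibody-treated replicate 2 (adjusted p = 0.0515). Among glutamate and GABA receptors 1 of 28 tested members was higher and 6 lower (1 higher and 3 lower after correction), with 3 lower without injured replicate 4 or antibody-treated replicate 1 or 2. Grm2, a presynaptic glutamate receptor, fell from 45.5 ± 3.52 to 28.4 ± 1.88 CPM (mean ± SD, n = 4; log2 change of -0.68 with SE 0.08, adjusted p = 0.00118 by edgeR), and Grin1, the obligate NMDA receptor subunit, had -0.44 ± 0.07 SE. Gabra2, a GABA receptor subunit, was higher (0.76 ± 0.11 SE). In the cortical excitatory neuron list, 1 of 20 tested members was higher and 4 lower (3 higher and 5 lower after correction). Cux2, of upper cortical layers, had -0.52 ± 0.07 SE and Emx1, a factor of the dorsal forebrain, -0.71 ± 0.12 SE. Foxp2, of deep layers and striatum, was the higher one (0.66 ± 0.11 SE). Of 18 GABA interneuron genes 0 were called by edgeR or limma-voom and 2 by DESeq2, with 3 at an unadjusted edgeR p under 0.05 and 5 called after correction. Bcan, a proteoglycan of the net around neurons, fell from 312 ± 15.7 to 210.2 ± 13.9 CPM (log2 change of -0.57 with SE 0.07, adjusted p = 0.00133 by edgeR), and Marcks, an actin-binding protein of growing axons, rose by 0.75 ± 0.12 SE.

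Some markers of striatum and hypothalamus were higher. Drd1, the D1 dopamine receptor of striatal projection neurons, stood at 38.02, 35.1, 34.7 and 33.5 CPM in the 4 injured libraries and 50.98, 49.6, 52.9 and 49.5 CPM in the 4 antibody-treated libraries (log2 change of 0.52 with SE 0.07, adjusted p = 0.00194 by edgeR). Tac1, the substance P precursor, rose by 0.72 ± 0.11 SE and Rarb, a retinoic acid receptor, by 0.55 ± 0.08 SE. In the striatum list 6 of 20 tested members were higher and 0 lower, and 10 higher and 0 lower after correction for GC and length. Pmch, melanin-concentrating hormone of the lateral hypothalamus, stood at 0.581, 0.441, 0.306 and 0.243 CPM in the 4 injured libraries and 9.56, 9.95, 8.21 and 13.2 CPM in the 4 antibody-treated libraries (log2 change of 4.68 with SE 0.25, adjusted p = 2.61e-06 by edgeR). Hcrt, orexin of the neighbouring neurons, rose from 0.078 ± 0.0602 to 3.01 ± 0.94 CPM (mean ± SD, n = 4; log2 change of 5.13 with SE 0.45, adjusted p = 0.000135 by edgeR), Avp, vasopressin, by 2.67 ± 0.39 SE and Cartpt by 0.61 ± 0.12 SE. Of 17 hypothalamus genes 9 were tested, 6 of them above the filter in all injured libraries, with 4 higher and 0 lower. Slc6a3, the dopamine transporter of midbrain neurons, rose from 0.419 ± 0.171 to 3.200 ± 0.322 CPM (log2 change of 2.90 with SE 0.25, adjusted p = 0.000127 by edgeR), and Slc18a2, the vesicular monoamine transporter, by 1.14 ± 0.22 SE. The dopamine synthesis genes Th (0.28, adjusted p = 0.268) and Ddc (0.28, adjusted p = 0.116) were not called.

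Among markers of the habenula, a small nucleus beside the thalamus, 0 of 10 tested members were higher and 2 lower (20%, against 7.34% of all tested genes). Gpr151, an orphan receptor of habenular neurons, fell from 2.13 ± 0.223 to 1.09 ± 0.206 CPM (mean ± SD, n = 4; log2 change of -0.97 with SE 0.19, adjusted p = 0.0116 by edgeR). Pou4f1, the habenular transcription factor Brn3a, fell from 1.15 ± 0.207 to 0.35 ± 0.258 CPM (log2 change of -1.70 with SE 0.41, adjusted p = 0.0238 by edgeR). It lost its call without any 1 of injured replicates 3 or 4 or antibody-treated replicate 2 (adjusted p 0.0581 to 0.0694). In the thalamus list 0 of 17 tested members were higher and 2 lower, a share of 11.8% near the 7.34% of all tested genes. The labels do not place the cube within the brain, and the part of tissue sampling in the regional markers was not tested.

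Choroid plexus genes, which mark the epithelium that makes cerebrospinal fluid, were higher in 17 of 18 tested members, of 19 listed, with a median of 0.74, 17 also after correction for GC and length and 13 to 17 with any 1 library left out. Enpp2, the secreted enzyme autotaxin, stood at 447, 427, 459 and 425 CPM in the 4 injured libraries and 693, 722, 705 and 629 CPM in the 4 antibody-treated libraries (log2 change of 0.64 with SE 0.07, adjusted p = 0.000479 by edgeR). Kcne2, a potassium channel subunit, stood at 3.68, 4.35, 3.43 and 3.22 CPM without the antibodies and 8.45, 7.43, 7.78 and 8.24 CPM with them (log2 change of 1.12 with SE 0.12, adjusted p = 0.000554 by edgeR). Cldn2, a tight junction protein of this epithelium, rose by 0.90 ± 0.13 SE, and Sostdc1, a secreted BMP antagonist, by 0.85 ± 0.10 SE. No antibody-treated library reached down to an injured one for these 4 genes. Ttr, transthyretin of this epithelium, rose from 892 ± 125 to 1426 ± 317 CPM (mean ± SD, n = 4, log2 change of 0.68 with SE 0.16, adjusted p = 0.0206 by edgeR). It lost its call without any 1 of injured replicates 3 or 4 or antibody-treated replicates 1 or 2 (adjusted p 0.056 to 0.0651). Summed CPM of the list was 1287 to 1568 CPM in injured and 1930.1 to 2596 CPM in antibody-treated libraries. As for the regional markers, the part of sampling was not tested here.

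Mitochondrial genome transcripts made up 10.04 ± 0.945% of exon reads with the antibodies and 6.84 ± 1.51% without (mean ± SD, n = 4; exact two-sided permutation p = 0.0286). Of 13 genes 6 were called higher and 0 lower. The number was 1 without injured replicate 3, antibody-treated replicate 1 or antibody-treated replicate 2, and 10 without antibody-treated replicate 4. By edgeR after correction for GC and length 0 were called and 1 had an unadjusted p under 0.05, where the median GC content of these genes is 37.1%. mt-Nd3, a subunit of complex I, stood at 729, 659.5, 424 and 326 CPM in the 4 injured libraries and 1337, 1337, 1273 and 1659 CPM in the 4 antibody-treated libraries (log2 change of 1.39 with SE 0.22, adjusted p = 0.00508 by edgeR), against -0.05 after correction (adjusted p = 0.797). mt-Atp6, of the ATP synthase, had 1.02 ± 0.27 SE, and an adjusted p = 0.33 after correction. Its call was also lost without any 1 of injured replicate 3 or antibody-treated replicates 1 or 2 (adjusted p 0.0834 to 0.0896). Among nuclear respiratory chain genes 1 of 23 tested members was higher and 0 lower, and 2 higher and 6 lower after correction.

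Among cell cycle genes 1 of 20 tested members was higher and 0 lower, a share no larger than the 7.25% of all tested genes. The higher one was Mki67, the proliferation marker, which rose from 1.42 ± 0.23 to 2.54 ± 0.123 CPM (mean ± SD, n = 4; log2 change of 0.84 with SE 0.17, adjusted p = 0.0123 by edgeR).

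The lower genes of largest fold include some whose reads cannot be placed with certainty. RPS10-NUDT3 fell (log2 change of -3.14 with SE 0.87, adjusted p = 0.0377 by edgeR) with 0% of its reads matching only 1 place. It lost its call without any 1 of injured replicates 1 to 4 or antibody-treated replicates 1 or 2 (adjusted p 0.0573 to 0.119). B3gnt2 (log2 change of -1.20 with SE 0.24, adjusted p = 0.0118 by edgeR), a glycosyltransferase gene, had 10.4% of its reads unique. Exons of Ckm, Icam5, Col3a1, Atp2a1, Myh1, Fn1, Vcam1, Icam1, Itga4, Mmp19, Pi16, Col4a2, Fgf2, P2ry12, Cx3cr1, Ms4a6c, Ms4a6b, Cxcl10, Fcgr2b, Cd74, C1s1, Lck, Dusp1, Junb, Grm2, Grin1, Rarb, Pmch, Slc18a2, Enpp2, mt-Atp6, RPS10-NUDT3 and B3gnt2 overlap an exon of another annotated gene. The labels do not say whether counting used strand, so the reads of these genes and their neighbours cannot be told apart with certainty.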

How the data were processed

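Total RNA from 12 mouse brain samples was made into stranded total RNA libraries, per the labels' protocols. Reads were handled with Trimmomatic 0.39, FastQC 0.11.8 and CASAVA 1.8.2 on build GRCm38, per the submitters' processing notes. No source used here names the aligner or the counting program. The deposited tables hold counts of total exon reads per gene, as made by the authors, beside the authors' deposited TPM, of which no value is given here. From the counts of 8 libraries (4 injured, 4 antibody-treated), genes were filtered with filterByExpr, scaled by TMM and tested with edgeR 4.0.16 (quasi-likelihood, 6 residual degrees of freedom, Benjamini-Hochberg adjusted p under 0.05). SE is the size of the log2 fold change over the root of F. The labels give 4 mice per group, and p-values measure the spread between the libraries. Whether that is the full spread between mice was not tested. Intervals and floors cover counting error only. On simulated counts for 14479 genes the test recovered 8% of genes changed 1.2-fold, 64% at 1.5-fold, 96% at 2-fold and 100% at 3-fold. Of its calls there 2.90% were false. The simulated counts were drawn gene by gene with no trend over GC content or length. Real calls did follow GC content, so these shares need not hold for them. Alternatives included DESeq2, limma-voom, other scalings and filters, correction for GC and length (mgcv 1.9.3), a replicate block, and leaving out each library. 4 were chosen after seeing the data. The genes and lists named were chosen with earlier results of these data known. Named were the 10 called genes of largest fold in each direction (at least 1 CPM in the higher group, groups not overlapping, no predicted or pseudogene names), the 10 of smallest p, the 4 members of smallest p in each list, the integrin chains and ligands, and for blood and other tissues the 4 members of highest CPM. Slc6a3, Slc18a2, Th, Ddc, Ogn, Ttr, Fos, Egr1, Junb, Col6a3, Tmem119, Cx3cr1, Rsad2, Gfap, Nr4a3 and Ier2 were chosen after their values were seen.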

Additional observations from a re-analysis of the deposited data

Results flagged for a closer look

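In each gene named, a library was singled out where its distance from the nearest of the other 3 libraries of its group divided by the group's range was above Dixon's 95% critical value for 4 samples. Of 264 groups checked, 12 held such a library, and chance gives about 1 in 20 groups, so these are about as many as chance gives. Among injured libraries, Ckm had 0.0645 CPM in replicate 1 and 0 in the others, Igha had 0.0630 CPM in replicate 2 and 0 in the others, and Ighg1 had 0.243 CPM in replicate 4 against 0.0612 to 0.0645. These 3 rest on a few reads. Myh1 was at 0.452 CPM in injured replicate 1 against 1.01 to 1.09, Atp2a1 at 1.94 CPM in the same library against 1.53 to 1.58, and Jchain at 0.189 CPM in injured replicate 2 against 0.304 to 0.323.

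Among antibody-treated libraries, replicate 4 had Lpl at 56.8 CPM against 43.8 to 45.1, mt-Nd3 at 1659 CPM against 1273 to 1337, and Slc18a2 at 1.44 CPM against 1.85 to 1.89. Replicate 3 had Fcgr2b at 10.5 CPM against 13.2 to 13.4 and Cux2 at 68.7 CPM against 61.4 to 62.0. Ccn1 was at 6.89 CPM in replicate 1 against 5.70 to 5.81. In each of these 6 genes the library that stood apart still lay outside the range of the injured libraries.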

How the results depend on the processing

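Exon junction reads, an alternative chosen after seeing the data that keeps only reads across splice sites, gave 70 higher and 18 lower genes, 57 and 3 of them at least 2-fold. A test against a fold of 1.2 gave 197 and 88 (9 lower at least 2-fold). With the uninjured libraries added to the filter, scaling and model (12 in all), 14771 genes were tested and 1612 were higher. A replicate block gave 456 higher and 328 lower (12 at least 2-fold lower), or 508 and 569 when combined with the correction for GC and length. Same-numbered libraries did not deviate together (correlations -0.18, -0.15, 0.04 and 0.05), while differently numbered ones ran from -0.50 to 0.48. The labels do not say whether the numbers pair mice. These correlations cannot settle it, as larger differences between libraries could hide a pairing. Leaving out 1 library gave 365 to 1468 higher and 312 to 1570 lower genes, with 146 to 208 and 11 to 76 at least 2-fold. Leaving out injured replicate 2 gave 565 and 561, injured replicate 3 464 and 499, and injured replicate 4 520 and 449. Leaving out antibody-treated replicate 1 gave 433 and 474, and replicate 2 gave 365 and 312. Leaving out genes that overlap another gave 14 at least 2-fold lower, and leaving out antibody-treated replicates 3 and 4 gave 38. The mitochondrial share differed by 2.50 to 3.60 points with 1 library left out, where 3 against 4 libraries cannot reach p under 0.05. The other count alternatives stayed within 1.5 times. The cause of these changes was not tested. Of 113 called genes named, B2m not counted, 91 kept their call in every alternative that tested them but junction reads, with which 40 lost it. Genes that an alternative left out, such as those overlapping another gene or mitochondrial ones, were not counted as lost there. B2m lost its call after correction for GC and length, with or without the replicate block, and with junction reads.

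Some fold changes turned sign. Among called genes these were mt-Nd3 (1.39 as reported) and Marcks (0.75 as reported), and the others were not called. With 1 library left out, log2 changes ran from -0.23 to 0.0074 for Icam2, -0.018 to 0.092 for Tmem119, -0.011 to 0.030 for Cx3cr1, -0.052 to 0.022 for Gfap and -0.021 to 0.11 for Ighm. Cx3cr1 was -0.019 by library size alone and -0.040 without antibody-treated replicates 3 and 4. Corrected for GC and length, Gfap was 0.16 (0.15 with the replicate block) and mt-Nd3 -0.049 (-0.039 with the block). With junction reads Icam2 was 0.45, Cx3cr1 -0.46, Cd4 -0.20, Egr1 -0.49 and Marcks -0.30.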

Other observations

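Reads over immunoglobulin V segments, the variable parts that each B cell clone joins to a constant part, were summed without a test. The 4 antibody-treated libraries held 760 such reads, between 182 and 202 per library, over 85 of 218 listed segments. The 4 injured libraries held 23 reads over 19 segments. Igkv17-121, a kappa segment, had 0 reads in injured and 216 in antibody-treated libraries, at least 84.99-fold higher against a floor of 3 reads over the group. Ighv1-52, a heavy chain segment, had 0 and 132 reads, at least 51.9-fold higher. Of their reads 81.9% and 68.9% matched 1 place, so the split among related segments is uncertain. All 6 segments with at least 20 reads were seen in all 4 antibody-treated libraries. Igkv17-121 had 58, 61, 44 and 53 reads in antibody-treated replicates 1 to 4, and Ighv1-52 had 40, 30, 44 and 18. The same segments thus recurred in every antibody-treated library. The labels give separate mice, and whether these reads came from separate mice was not tested. Over those 6, the variance between the 4 libraries was a median of 1.41 times the counting noise (0.553 to 3.85).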
